A study of Homo sapiens with 12 samples.

Results

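The TRIM (tripartite motif) genes are a family of ubiquitin ligases, several of which take part in defence against viruses. Every gene of the count table whose symbol is TRIM followed by a number was taken, which gave 66 of 60666 genes, and the 54 with a total of at least 10 counts over the 12 libraries are the members described here. The choice used no test between groups, although a member counted almost only in some libraries can reach that minimum through them. RNA was sequenced from HT1376 CT, a control line made from the bladder cancer line HT1376 with Cas9 and a guide against luciferase, and from HT1376 FOXP3 KO, made with Cas9 and guides against exon 2 of FOXP3. Both lines were grown from single-cell clones. How many clones of each were sequenced is not given in the sources used here, so the genotype and the clone cannot be told apart. Both lines were left untreated or given 100 ng/mL interferon gamma (IFNγ) for 48 hours, which makes 4 groups of 3 libraries with the replicate numbers 11, 12 and 13. The control line is labelled wild type by the submitters. Nothing in the sources used says that the 3 libraries of a group came from separate cultures, so p-values measure the spread between these libraries, which may be technical.

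A TRIM protein carries, from its N terminus, a RING finger that recruits a ubiquitin-conjugating enzyme, B-box zinc fingers and a coiled coil through which the proteins pair. The C-terminal domain then decides what is bound. A PRY-SPRY domain is the most common one and is found in the antiviral members such as TRIM5, TRIM21, TRIM22 and TRIM25. Others end in a PHD finger and bromodomain that read histones, in NHL repeats, or in a COS box that binds microtubules. IFNγ acts through the JAK kinases and gamma-activated sites (GAS) in DNA, and through factors such as IRF1 that bind interferon-stimulated response elements (ISRE), and a number of TRIM genes are known targets of interferons.

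The libraries held 4490684 to 39270042 counts on genes (median 15551202). FOXP3 had at most 3 counts in any library and 0 in 8 of the 12, so its counts could not check the labels. The sum of 8 epithelial markers lay between 4282 and 5682 CPM (library counts normalized for depth with TMM factors) in all libraries. The sum of 6 fibroblast and muscle markers was 46.2 to 63.7 CPM in untreated HT1376 CT and 472 to 705 CPM in untreated HT1376 FOXP3 KO, and that of 9 immune cell markers 3.75 to 5.32 and 102 to 233 CPM. Of the 6 fibroblast and muscle markers, COL1A2, DCN, LUM and PDGFRB were higher in untreated HT1376 FOXP3 KO, COL1A1 was lower and ACTA2 did not pass the test. Of the 6 immune markers tested, CSF1R, which held most of the counts of that list in HT1376 FOXP3 KO, was higher, CD3E was lower and 4 did not pass, while CD8A, MS4A1 and LYZ were at or under 3 counts in every library. The part of these markers in the differences between the lines was not tested.

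Promoter windows from RefSeq (GRCh38.p14, 250 bases before to 50 after each start) were held for 42 of the 54 members, 61 windows in all. They were searched on both strands for the GAS letters TTCNNNGAA and the ISRE letters GAAANNGAAA. Matches of 1 kind overlapped no match of the other in these windows. The ISRE letters were in 9 of the 61 windows and in 3.57% of the 35116 windows of all genes, and the GAS letters in 10 of the 61 and in 7.66%. Of the 12 members that rose with IFNγ in at least 1 line, 11 had a window, with ISRE letters in 5 of them and GAS letters in 1. Among the other 31 members with a window, 4 held ISRE letters and 6 GAS letters, counting TRIM2 and TRIM16 under both. The following stretches of 28 bases show the match in capitals for members that rose. A match on the opposite strand appears as its reverse complement.
TRIM21 (chr11:4393667-4393694, minus strand): ttctgagcgGAAACTGAAAgtgaaatag
TRIM26 (chr6:30213582-30213609, minus strand): cccgcctgaTTTCAGTTTCcatttcgct
TRIM5 (chr11:5685083-5685110, minus strand): tagtttatcTTTCACTTTCctgccctga
TRIM14 (chr9:98119230-98119257, minus strand): cggccgaggTTTCGGTTTCccttgggag
TRIM69 (chr15:44736457-44736484, plus strand): taatgagggTTTCTCTTTCtcttaagca
TRIM40 (chr6:30136024-30136051, plus strand): attcagtgtTTCTAGGAAagcatgagtc
TRIM40 (chr6:30136664-30136691, plus strand): gtgcaaataTTCACTGAAagctgtcaag
In TRIM21 and TRIM26 a second ISRE match overlapped the one shown, with its first base 6 bases further along, and the TRIM40 matches lay in different windows. The same letters stood before members that did not rise in either line in the fits without a block.
TRIM44 (chr11:35662731-35662758, plus strand): cctgacgggGAAAGGGAAAgtggaaccg
TRIM34 (chr11:5624902-5624929, plus strand): ccccaaaaaTTTCACTTTCatttctcag
TRIM16 (chr17:15683013-15683040, minus strand): cagaggtaaGAAATAGAAAtaaagggtc
TRIM2 (chr4:153151937-153151964, plus strand): ataaatagaGAAAAGGAAAtaagccgaa
The match began 17 bases after the start in TRIM21, and 27, 26 and 62 bases before it in TRIM5, TRIM14 and TRIM69. No letters of either kind were in the windows of TRIM17, TRIM25, TRIM31, TRIM38 and TRIM56. TRIM22 has no window in the table. A match is a run of letters and not a measured binding site.

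The 54 members together took 0.225% to 0.234% of the counts of untreated HT1376 CT and 0.298% to 0.302% with IFNγ. The share in HT1376 FOXP3 KO was 0.261% to 0.273% without and 0.325% to 0.332% with IFNγ, so the groups with and without IFNγ did not overlap in either line. Levels of different genes are compared as normalized CPM per kilobase of annotated exons, which understates genes with long exons that are rarely used. In untreated HT1376 CT the highest levels per kilobase were those of TRIM28, the corepressor of KRAB zinc finger proteins, at 41.8 ± 3.09 (SD, n = 3), and TRIM26 at 35.0 ± 1.83. TRIM27 (23.9 ± 3.87), TRIM44 (19.7 ± 0.719) and TRIM58 (19.1 ± 0.910) followed, and the ranges of these neighbours overlapped. In untreated HT1376 FOXP3 KO the first place was held by TRIM29, at 49.1 ± 7.19 per kilobase, above TRIM26 at 38.2 ± 3.40 and TRIM28 at 36.0 ± 3.94, and the last pair overlapped. With IFNγ, TRIM26 came first in both lines, at 64.9 ± 5.35 per kilobase in HT1376 CT and 57.5 ± 3.40 in HT1376 FOXP3 KO, although in the latter its range overlapped that of TRIM29. TRIM21, the cytosolic antibody receptor, then stood behind TRIM26 in HT1376 CT at 38.2 ± 3.82 and behind TRIM26 and TRIM29 in HT1376 FOXP3 KO at 36.8 ± 4.33 per kilobase.

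The first question was which members changed with IFNγ in HT1376 CT. Of 51 members tested, 11 rose and 3 fell at an adjusted p under 0.05, and 9 of the 11 that rose carry a PRY-SPRY domain. Over all 24416 genes tested, 3.53% rose and 1.82% fell. Adjusted p-values here and below are from edgeR's quasi-likelihood test with Benjamini-Hochberg adjustment over all genes, and fold changes are on the log2 scale with their standard errors (SE). The median log2 fold change of the members was 0.050, against -0.019 over all genes tested. By C-terminal domain, 9 of 27 PRY-SPRY members rose and none fell, 1 of 4 members with a PHD finger and bromodomain fell, and 1 of 3 with filamin and NHL repeats fell. Of the 9 tested with no such domain named here, 2 rose, TRIM40 and TRIM56, and 1 fell, TRIM29. Of the 3 members with a COS box, fibronectin repeat and SPRY domain that were tested and the 5 with a MATH, ARF, lone filamin or transmembrane domain, none passed in either direction without the block. Within each line, same-numbered libraries tended to lie on the same side of the group means. A fit that takes the number as a block is therefore given where it changes a call. With the block 15 members rose and 7 fell, against 8.67% and 9.88% of all genes.

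**Figure D1:**
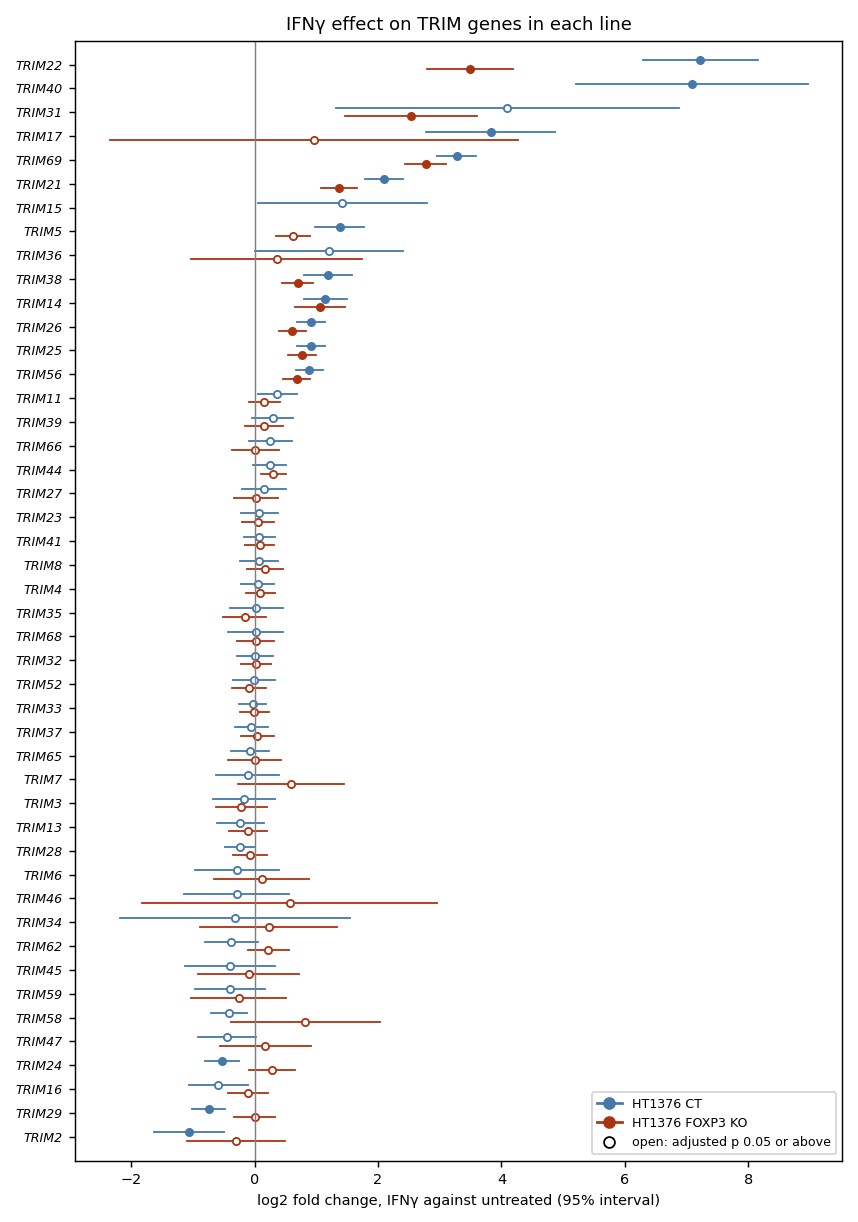
IFNγ effect on the 46 members with at least 100 counts, as log2 fold change (horizontal axis) with its 95% interval in HT1376 CT (blue) and HT1376 FOXP3 KO (red). Filled points passed an adjusted p of 0.05. TRIM22 and TRIM69 stand to the right of 0 in both lines, while TRIM24, TRIM29 and TRIM2 have filled points to the left in HT1376 CT only.

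TRIM22 (ENSG00000132274, chr11:5689610-5737089, plus strand), a restriction factor against several RNA viruses and HIV, had the largest change in HT1376 CT. Its normalized CPM in libraries 11, 12 and 13 were 0.819, 2.22 and 0.476 without and 137, 193 and 106 with IFNγ. Every treated library was far above every untreated one (log2 fold change 7.23, SE 0.42, adjusted p = 7.78e-07), which is 149.6-fold (95% interval 78.4 to 285). In HT1376 FOXP3 KO the CPM were 17.0, 12.1 and 6.97 without and 140.2, 155 and 107 with IFNγ. The groups again did not overlap, but the change was smaller (log2 fold change 3.49, SE 0.31, adjusted p = 0.000287), which is 11.2-fold (95% interval 6.93 to 18.2). The difference of both effects was -3.73 on the log2 scale (SE 0.55, 95% interval -4.90 to -2.55, adjusted p = 0.0114). TRIM22 was the 1 member of 54 past that test, while over all 27806 genes tested 0.0036% were past it upwards and 0.108% downwards. The treated levels of the lines lay on each other, with a log2 difference of -0.067 (95% interval -0.55 to 0.41), whereas without IFNγ TRIM22 was higher in HT1376 FOXP3 KO (log2 fold change 3.54, SE 0.52, adjusted p = 0.00038). The untreated HT1376 CT libraries enter both the IFNγ effect in that line and the difference without IFNγ. Leaving out untreated HT1376 CT library 11 or 13 moved the adjusted p of the difference in effects to 0.0622 and 0.0726. In bulk RNA, a change in the share of cells that express a gene and a change per cell cannot be told apart.

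TRIM69 (ENSG00000185880, chr15:44728988-44767829, plus strand), an interferon-stimulated ligase that acts against vesicular stomatitis virus, rose in both lines. Its CPM were 16.8, 22.4 and 19.3 in untreated and 168, 205 and 183 in treated HT1376 CT (log2 fold change 3.28, SE 0.14, adjusted p = 6.53e-08). They were 14.3, 14.3 and 12.4 without and 78.7, 104 and 94.2 with IFNγ in HT1376 FOXP3 KO (log2 fold change 2.77, SE 0.15, adjusted p = 1.07e-05). No treated library overlapped an untreated one in either line, and the treated HT1376 FOXP3 KO libraries all lay below the treated HT1376 CT libraries. TRIM21 (ENSG00000132109, chr11:4384897-4393702, minus strand), which binds antibody-coated virus in the cytosol, had 17.1, 19.6 and 16.1 CPM in untreated HT1376 CT and 69.7, 82.4 and 69.5 with IFNγ (log2 fold change 2.09, SE 0.14, adjusted p = 2.34e-06). Its CPM in HT1376 FOXP3 KO were 26.1, 28.7 and 29.4 and rose to 63.0, 79.7 and 70.7 (log2 fold change 1.36, SE 0.13, adjusted p = 0.000501). As with TRIM22, the untreated level was higher in HT1376 FOXP3 KO (log2 fold change 0.69, SE 0.14, adjusted p = 0.00328) and the treated levels overlapped (log2 difference -0.0097, 95% interval -0.32 to 0.30). The difference in effects for TRIM21 was -0.74 on the log2 scale (SE 0.19, adjusted p = 0.273), past the threshold with the block (adjusted p = 0.00748).

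TRIM5 (ENSG00000132256, chr11:5663195-5938619, minus strand), the factor that attacks the capsid of incoming retroviruses, had 31.1, 39.6 and 33.1 CPM in untreated HT1376 CT and 80.4, 115 and 70.8 with IFNγ (log2 fold change 1.38, SE 0.18, adjusted p = 0.000783). In HT1376 FOXP3 KO its CPM were 37.0, 39.4 and 39.6 without and 52.0, 66.0 and 58.4 with IFNγ, where the log2 fold change was 0.62 (SE 0.13, adjusted p = 0.0687). Groups did not overlap in either line, and with the block TRIM5 rose in HT1376 FOXP3 KO as well (adjusted p = 2.66e-10). With the block its 2 effects also differed (-0.75 on the log2 scale, adjusted p = 0.0118), which they did not without it (adjusted p = 0.514). TRIM38, a brake on TNF and Toll-like receptor signalling, went from 56.9, 78.2 and 56.7 to 135, 177 and 119 CPM in HT1376 CT (log2 fold change 1.19, SE 0.18, adjusted p = 0.00161). It went from 56.5, 53.1 and 55.5 to 96.9, 82.6 and 83.9 CPM in HT1376 FOXP3 KO (log2 fold change 0.69, SE 0.11, adjusted p = 0.0184). TRIM14, an adaptor of MAVS signalling at the mitochondrion that lacks a RING finger, had 32.5, 23.7 and 24.7 and then 67.5, 50.1 and 57.5 CPM in HT1376 CT (log2 fold change 1.14, SE 0.16, adjusted p = 0.00109). Its CPM in HT1376 FOXP3 KO were 26.2, 17.7 and 20.2 without and 48.4, 34.3 and 49.5 with IFNγ (log2 fold change 1.06, SE 0.18, adjusted p = 0.0267). Both genes were higher in every treated library than in any untreated library of the same line.

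Abundant members rose by less than 2-fold. TRIM25, the ligase that ubiquitinates the RNA sensor RIG-I, had 187, 202 and 221 CPM in untreated and 377, 354 and 396 CPM in treated HT1376 CT (log2 fold change 0.91, SE 0.10, adjusted p = 0.000179). Its CPM in HT1376 FOXP3 KO were 102.6, 91.1 and 109.9 and 169, 158 and 184 (log2 fold change 0.77, SE 0.10, adjusted p = 0.00485). All treated HT1376 FOXP3 KO libraries lay below all untreated HT1376 CT libraries for this gene. TRIM26, a regulator of IRF3 in the nucleus, rose from 154, 145 and 161 to 282, 262 and 308 CPM in HT1376 CT (log2 fold change 0.91, SE 0.10, adjusted p = 0.000185) and from 178, 150.3 and 173 to 251, 237 and 267 CPM in HT1376 FOXP3 KO (log2 fold change 0.61, SE 0.097, adjusted p = 0.0179). TRIM56, which promotes signalling from cytosolic nucleic acid, rose from 123, 124 and 115 to 219, 209 and 229.5 CPM in HT1376 CT (log2 fold change 0.88, SE 0.098, adjusted p = 0.000178) and from 126, 115 and 112 to 186, 184 and 189 CPM in HT1376 FOXP3 KO (log2 fold change 0.68, SE 0.098, adjusted p = 0.00904). For both genes the lines had like levels before treatment, with 95% intervals of the log2 difference of -0.097 to 0.38 for TRIM26 and -0.25 to 0.21 for TRIM56.

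A further 3 members were induced from near the counting limit, where raw counts say more than CPM. TRIM40, which dampens NF-κB activity in the gut, had 0, 0 and 1 counts in untreated HT1376 CT libraries 11, 12 and 13 and 13, 15 and 72 with IFNγ (log2 fold change 7.08, SE 0.86, adjusted p = 0.000365). The ratio of the summed counts, scaled for depth, was 207 with a counting interval of 36.4 to 8268, which covers counting error only. In HT1376 FOXP3 KO it had 0, 0 and 0 counts without and 0, 0 and 2 with IFNγ and was not tested for the IFNγ effect, and with IFNγ it was lower than in HT1376 CT (log2 fold change -6.05, SE 0.86, adjusted p = 0.00032). TRIM17, a ligase studied in neuronal cell death, had 5, 1 and 15 counts in untreated and 48, 16 and 70 in treated HT1376 CT (log2 fold change 3.82, SE 0.48, adjusted p = 0.000495). Its counts in HT1376 FOXP3 KO were 0, 0 and 3 and 3, 0 and 4, with no call (log2 fold change 0.97, SE 1.47, adjusted p = 0.999). TRIM40 and TRIM17 were therefore at most at 4 counts in any HT1376 FOXP3 KO library, and the test of the difference in effects did not pass for them (adjusted p = 1 and 0.85). TRIM31, a ligase that activates MAVS and degrades NLRP3, passed in HT1376 FOXP3 KO and not in HT1376 CT without the block, although its fitted log2 fold change was the larger in HT1376 CT and the difference did not pass its own test (adjusted p = 0.925). It had 14, 7 and 5 counts in untreated and 65, 20 and 67 in treated HT1376 FOXP3 KO (log2 fold change 2.53, SE 0.48, adjusted p = 0.0459). Its call there was lost when any 1 of the 6 libraries was left out (adjusted p of 0.0555 to 0.255). In HT1376 CT it had 2, 0 and 2 counts without and 0, 9 and 26 with IFNγ, where treated library 11 was at 0 and the groups overlapped (log2 fold change 4.10, SE 1.27, adjusted p = 0.099). With the block TRIM31 rose in HT1376 CT (adjusted p = 0.0161), and without treated library 11 it also passed (adjusted p = 0.0116).

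**Figure D2:**
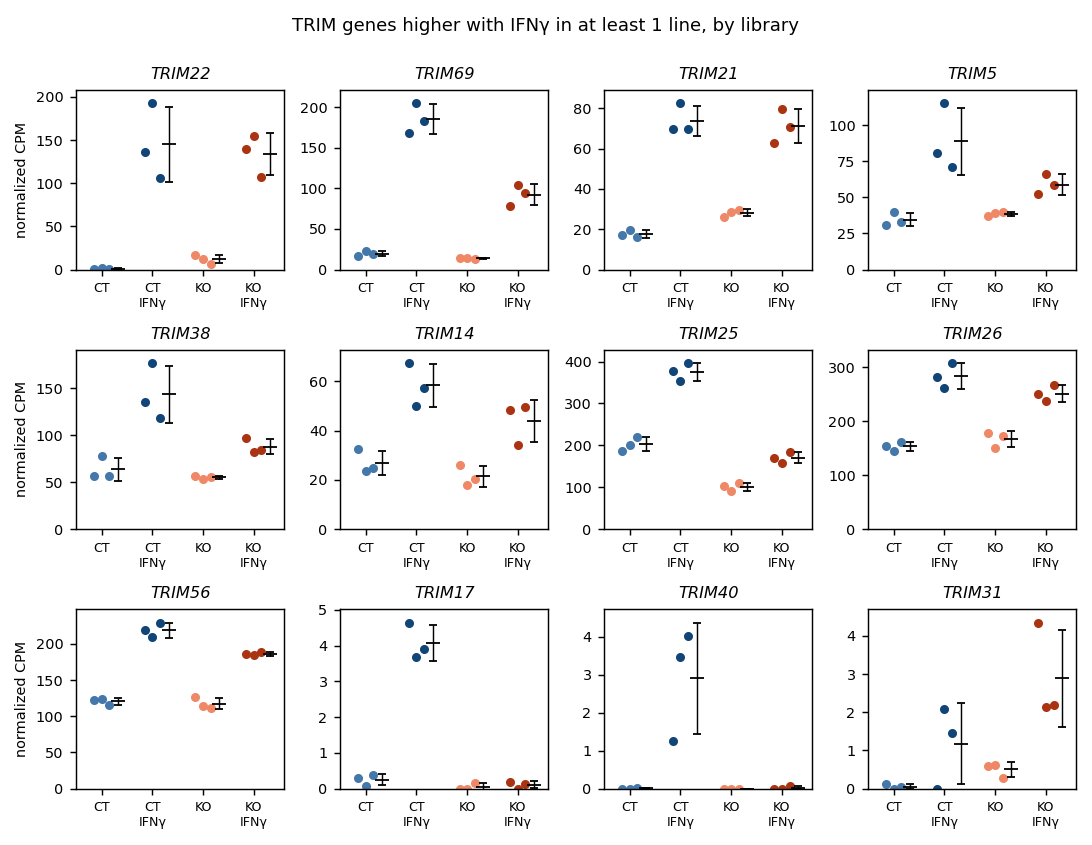
Normalized CPM of the 12 members that rose with IFNγ in at least 1 line, with 1 point per library (libraries 11, 12 and 13 from left to right) and the mean ± SD in black. Each vertical axis starts at 0. TRIM22 and TRIM21 reach the same treated level in both lines, and TRIM40 and TRIM17 stay near 0 in HT1376 FOXP3 KO.

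The members that fell with IFNγ in HT1376 CT were TRIM2, TRIM29 and TRIM24. TRIM2, a ligase of neurofilament light chain, had 20.5, 14.9 and 13.4 CPM in untreated and 10.3, 5.08 and 6.93 CPM in treated libraries (log2 fold change -1.07, SE 0.26, adjusted p = 0.0342). TRIM29, a member without a RING finger found in basal epithelium, had 149.7, 148 and 161 and 97.9, 72.9 and 97.2 CPM (log2 fold change -0.75, SE 0.12, adjusted p = 0.00373). TRIM24, a histone reader and coregulator of nuclear receptors, had 49.5, 56.1 and 48.1 and 35.8, 32.8 and 35.6 CPM (log2 fold change -0.53, SE 0.12, adjusted p = 0.0278). In each case every treated library was below every untreated one. The fall of TRIM29 passed in every fit with a library left out. The call of TRIM2 was lost in all such fits but that without treated library 11 (adjusted p up to 0.157), and that of TRIM24 in all but that without treated library 12 (up to 0.105), so the number of members that fell was 1 without untreated library 11, 12 or 13 or treated library 13. With the block TRIM16 (log2 fold change -0.61, adjusted p = 1.71e-05), TRIM28 (-0.24, adjusted p = 0.00951), TRIM58 (-0.43, adjusted p = 1.43e-05) and TRIM59 (-0.44, adjusted p = 0.03) fell too. Likewise TRIM10, TRIM11 and TRIM44 rose only with the block, with log2 fold changes of 2.43, 0.36 and 0.23 and adjusted p of 0.0496, 0.00461 and 0.00543.

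In HT1376 FOXP3 KO, 9 of 49 members tested rose with IFNγ and none fell, while 0.978% of the 24131 genes tested rose and 0.00414%, or 1 gene, fell. No member was lower with IFNγ at an unadjusted p under 0.05 in edgeR's test, and DESeq2 also called 0 lower. With the block 12 rose and none fell, against 3.92% and 1.6% of all genes, the additions being TRIM5, TRIM24 (0.28 on the log2 scale, adjusted p = 0.000365) and TRIM44 (0.30, adjusted p = 1.3e-06). The 9 that rose were TRIM14, TRIM21, TRIM22, TRIM25, TRIM26, TRIM31, TRIM38, TRIM56 and TRIM69, and 8 of them, all but TRIM31, had risen in HT1376 CT. These 8 are 72.7% of those that rose in HT1376 CT and 88.9% of those that rose in HT1376 FOXP3 KO, and each had the larger log2 fold change in HT1376 CT. Over all genes 862 rose in HT1376 CT and 236 in HT1376 FOXP3 KO. Their overlap was not counted, so the sharing cannot be read as a trait of the family. The difference was past its own test for 1 of the 8, TRIM22. Calls in HT1376 FOXP3 KO were less secure: 5 members rose without untreated library 12, 4 without untreated library 13 and 4 without treated library 11. Leaving out 1 library lost the call of TRIM26 in 5 of 6 fits, all but that without treated library 12 (adjusted p up to 0.122). TRIM14 lost it without untreated library 12 or 13 or treated library 11 or 13 (up to 0.169). TRIM38 lost it without any untreated library or without treated library 11 (up to 0.117), and TRIM56 without untreated library 13 or treated library 11 (up to 0.0702). TRIM21, TRIM22, TRIM25 and TRIM69 kept an adjusted p under 0.05 in all 6.

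With the block, TRIM24 and TRIM29 also differed in their response between the lines, in the opposite direction to TRIM22, TRIM21 and TRIM5. Then 2 members were past the test upwards and 3 downwards, against 0.525% and 0.683% of all genes. For this difference the block takes a replicate number to act alike in both lines. TRIM24 had 109, 151 and 126 CPM in untreated and 142, 182 and 139 CPM in treated HT1376 FOXP3 KO, with the 2 ranges overlapping, and its difference in effects was 0.79 on the log2 scale with the block (adjusted p = 0.00352, and 0.248 without it). TRIM29 had 455, 577 and 449 CPM without and 424, 556 and 483 CPM with IFNγ there, again overlapping, and its difference in effects was 0.73 (adjusted p = 0.0125, and 0.329 without the block).

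Among the 47 members tested in both lines, 27 passed no IFNγ test in either line, with or without the block. For 12 of these the 95% intervals in both lines lay within a 1.5-fold change either way, namely TRIM4, TRIM8, TRIM23, TRIM27, TRIM32, TRIM33, TRIM35, TRIM37, TRIM41, TRIM52, TRIM65 and TRIM68. For the other 15 the interval reached past 1.5-fold in at least 1 line, so a change of that size was not excluded there. The 5 members of highest mean CPM, not divided by length, without a call were TRIM27, TRIM33, TRIM37, TRIM41 and TRIM4. TRIM27, a nuclear ligase known as a fusion partner of RET, had 195, 158 and 219.6 CPM in untreated and 228, 155 and 239.6 CPM in treated HT1376 CT, and 181, 127 and 183 and 175, 131 and 188 CPM in HT1376 FOXP3 KO. Library 12 was the lowest of each group, and the groups overlapped (95% intervals of the log2 fold change -0.21 to 0.50 and -0.34 to 0.38). TRIM33, a chromatin reader of TGF-β signalling, had the narrowest intervals of the 5, -0.25 to 0.19 in HT1376 CT and -0.23 to 0.22 in HT1376 FOXP3 KO, and its CPM ran from 139 to 169 over all 12 libraries. TRIM37, a ligase of histone H2A and of centrosomal proteins, ran from 45.5 to 65.3 CPM, with intervals of -0.31 to 0.21 and -0.22 to 0.31. TRIM41 ran from 52.0 to 65.7 CPM (-0.18 to 0.32 and -0.15 to 0.31). TRIM4, which like TRIM25 ubiquitinates RIG-I, ran from 40.2 to 50.1 CPM (-0.22 to 0.32 and -0.15 to 0.33). TRIM33 belongs with TRIM24, TRIM28 and TRIM66 to the chromatin-reading subfamily, of which TRIM24 alone passed a test for IFNγ without the block.

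**Figure D3:**
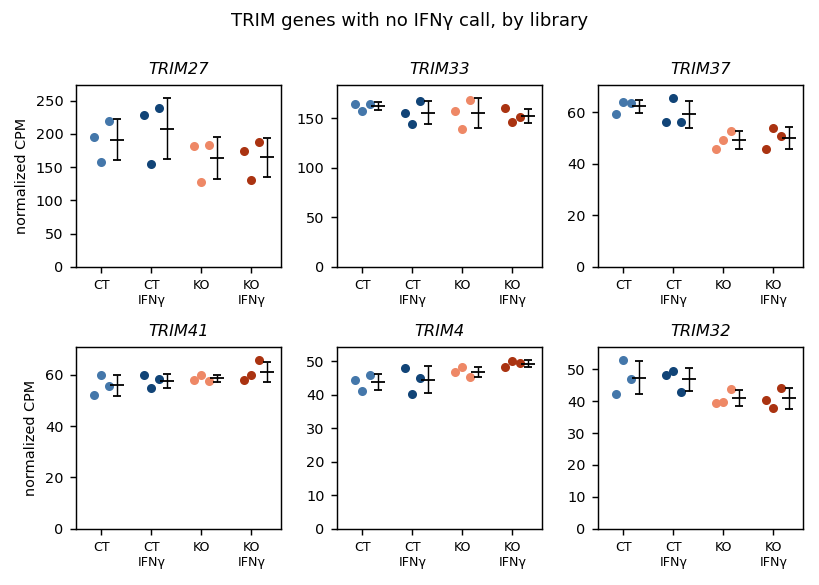
Normalized CPM of TRIM27, TRIM33, TRIM37, TRIM41, TRIM4 and TRIM32, which passed no IFNγ test, by library (points) with the mean ± SD in black and the vertical axis from 0. Treated and untreated points of each line lie at like heights.

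The second question was how the lines differed before treatment. Of 51 members tested, untreated HT1376 FOXP3 KO had 10 above and 11 below untreated HT1376 CT, at an adjusted p under 0.05. Over all 25320 genes, 14% were higher and 18.2% lower, so changed members were about as common as changed genes in general. The median log2 difference was -0.051 for the members and -0.021 for all genes. Of the 27 PRY-SPRY members 3 were higher and 8 lower, and of the 4 with a PHD finger and bromodomain 2 were higher and none lower. Of the 8 tested with no such domain named here, 3 were higher and none lower.

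**Figure D4:**
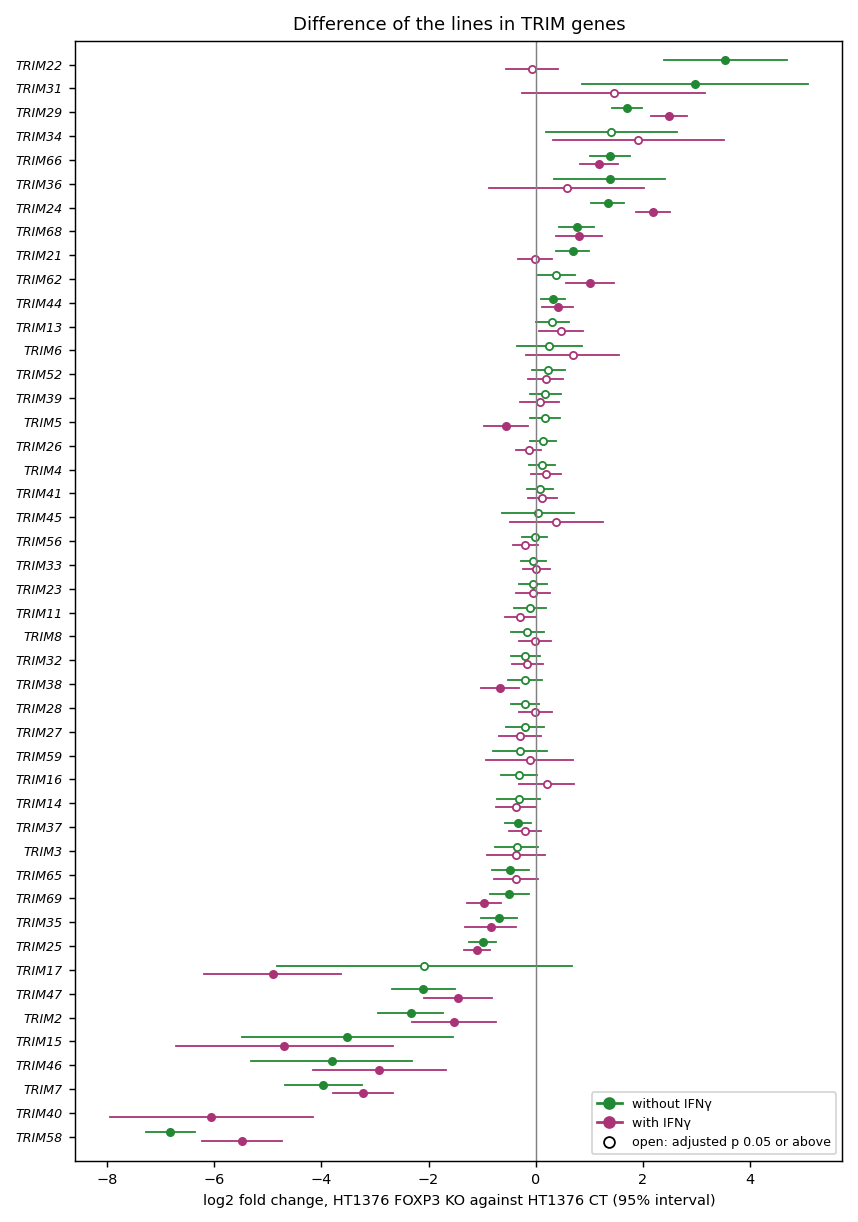
Difference between HT1376 FOXP3 KO and HT1376 CT in the 46 members with at least 100 counts, as log2 fold change (horizontal axis) with its 95% interval, without IFNγ (green) and with IFNγ (purple). Filled points passed an adjusted p of 0.05. TRIM58 lies at the far left in both conditions, and TRIM22 is far to the right without IFNγ and at 0 with it.

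TRIM58 (ENSG00000162722, chr1:247857187-247880138, plus strand), a dynein ligase known from red cell precursors, showed the largest decrease. It had 1623, 1218 and 3929 counts in untreated HT1376 CT and 21, 5 and 19 counts in untreated HT1376 FOXP3 KO, which are 98.5 ± 4.71 and 0.813 ± 0.333 normalized CPM (SD, n = 3; log2 fold change -6.82, SE 0.21, adjusted p = 8.94e-09). With IFNγ it had 84.9, 58.9 and 72.3 and 0.669, 1.17 and 2.41 CPM (log2 fold change -5.49, SE 0.34, adjusted p = 7.32e-07), so the lines stayed apart in every library. TRIM7, which binds glycogenin, had 10.6, 21.0 and 14.1 CPM against 1.11, 0.981 and 0.749 CPM (log2 fold change -3.97, SE 0.32, adjusted p = 5.59e-06). TRIM46, which bundles microtubules at the axon initial segment, had 2.17, 3.97 and 2.12 CPM against 0.343, 0.178 and 0 CPM (log2 fold change -3.81, SE 0.68, adjusted p = 0.00148). TRIM15, a protein of focal adhesions, was low in both lines, with 13, 8 and 47 counts against 4, 0 and 0 counts (log2 fold change -3.51, SE 0.89, adjusted p = 0.0117), and its call was lost without untreated HT1376 CT library 13 (adjusted p = 0.0819). TRIM2, which also fell with IFNγ in HT1376 CT, had 20.5, 14.9 and 13.4 CPM against 2.87, 2.23 and 4.32 CPM (log2 fold change -2.34, SE 0.27, adjusted p = 7.46e-05). For all of these genes the groups did not overlap. The remaining members that were lower were TRIM47 (-2.09 on the log2 scale), TRIM25 (-0.99), TRIM35 (-0.69), TRIM69 (-0.49), TRIM65 (-0.48) and TRIM37 (-0.32). The last 3 lost the call in 5, 5 and 6 of the 6 fits with a library left out. Without untreated HT1376 CT library 13, the deepest, 7 members were lower.

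Of the members that were higher, TRIM67, a neuronal ligase, was near the counting limit, with 0, 1 and 1 counts in untreated HT1376 CT and 14, 8 and 13 in untreated HT1376 FOXP3 KO (log2 fold change 4.25, SE 0.92, adjusted p = 0.00491). The ratio of summed counts, scaled for depth, was 22.7 with a counting interval of 5.84 to 195. Of the 60 counts of TRIM67, 35 and 21 were in untreated and treated HT1376 FOXP3 KO, so it reached the minimum of 10 through that line. TRIM31 had 2, 0 and 2 and 14, 7 and 5 counts (log2 fold change 2.97, SE 0.95, adjusted p = 0.0351), lost its call with the block (adjusted p = 0.0676) and lost it without untreated HT1376 CT library 12 or 13 or HT1376 FOXP3 KO library 11 or 12 (up to 0.112). Abundant members gave firmer values. TRIM29 had 149.7, 148 and 161 CPM in untreated HT1376 CT against 455, 577 and 449 CPM (log2 fold change 1.71, SE 0.12, adjusted p = 2.57e-06), and TRIM24 had 49.5, 56.1 and 48.1 CPM against 109, 151 and 126 CPM (log2 fold change 1.34, SE 0.14, adjusted p = 3.35e-05). TRIM66, a chromatin reader known from testis, had 23.1, 20.4 and 19.6 CPM against 65.3, 56.0 and 41.8 CPM (log2 fold change 1.39, SE 0.17, adjusted p = 0.000101). No library of one line reached the other line for TRIM29, TRIM24 or TRIM66. TRIM68, a coactivator of the androgen receptor, was higher by 0.77 on the log2 scale (adjusted p = 0.00226), TRIM36, a ligase on microtubules, by 1.39 (adjusted p = 0.0434) and TRIM44, a deubiquitinase-like member that stabilizes MAVS, by 0.32 (adjusted p = 0.0291). TRIM36 lost its call in 5 of 6 fits with a library left out and TRIM44 in 3 of 6 (without HT1376 CT library 12 or 13 or HT1376 FOXP3 KO library 11). TRIM22 and TRIM21, described above, complete the 10.

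**Figure D5:**
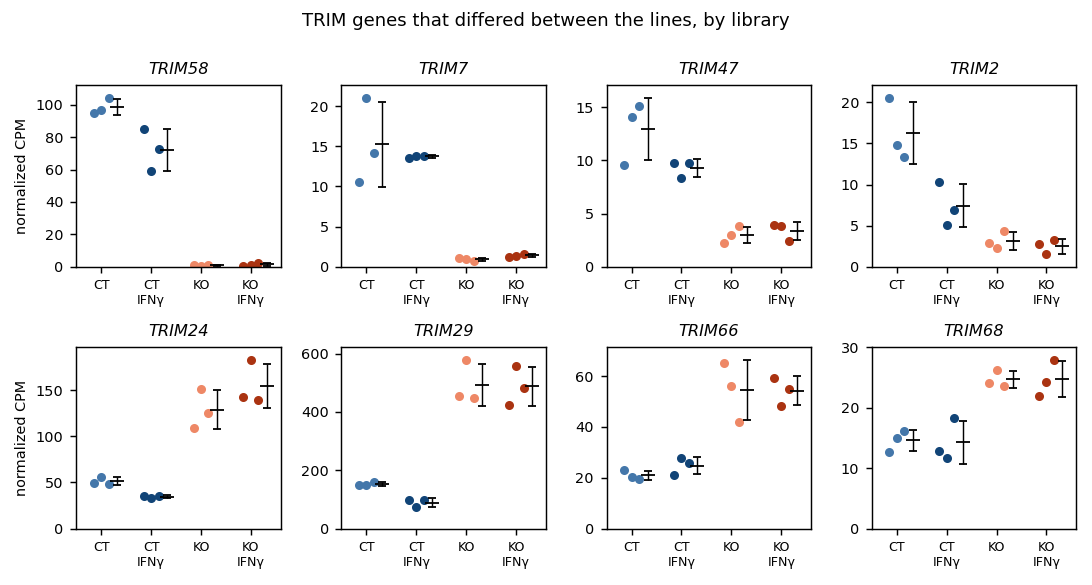
Normalized CPM of TRIM58, TRIM7, TRIM47, TRIM2, TRIM24, TRIM29, TRIM66 and TRIM68 by library (points), with the mean ± SD in black and the vertical axis from 0. The upper row is lower and the lower row higher in both groups of HT1376 FOXP3 KO than in HT1376 CT.

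With IFNγ in both lines, HT1376 FOXP3 KO had 7 of 52 members above HT1376 CT and 14 below it, against 13.2% and 15.7% of the 24388 genes tested. This comparison shares no library with that of untreated cells, but it uses the same lines. Same-numbered treated and untreated libraries of a line also tended to deviate together, so the comparisons are not independent. How far they overlap over all genes was not counted. Of the members higher in HT1376 FOXP3 KO, TRIM24, TRIM29, TRIM44, TRIM66 and TRIM68 were so in both conditions, which is 5 of the 10 without and 5 of the 7 with IFNγ. TRIM24 and TRIM29 differed by 2.19 (SE 0.15) and 2.49 (SE 0.15) on the log2 scale with IFNγ. TRIM2, TRIM7, TRIM15, TRIM25, TRIM35, TRIM46, TRIM47, TRIM58 and TRIM69 were lower in both conditions, 9 of 11 without and 9 of 14 with IFNγ. The 5 lower with IFNγ only by their own test were TRIM5, TRIM17, TRIM38, TRIM40 and TRIM72, of which 4 are members that rose with IFNγ in HT1376 CT. The treated HT1376 CT libraries enter both that IFNγ effect and this comparison, so the calls are not independent. For TRIM5 (log2 fold change -0.55, SE 0.19, adjusted p = 0.0496) the call was lost in 4 of the 6 fits with a library left out and with RLE size factors, filterByExpr, DESeq2 or the bias-adjusted deviance (adjusted p of 0.0531 to 0.0606). TRIM38 differed by -0.66 (SE 0.16, adjusted p = 0.0105) and TRIM17 by -4.91 (SE 0.58, adjusted p = 8.57e-05) on the log2 scale. Of the responders, TRIM25 and TRIM69 were lower in treated HT1376 FOXP3 KO (-1.10 and -0.96), while the 95% interval for TRIM14 was -0.73 to 0.0074, for TRIM26 -0.37 to 0.11 and for TRIM56 -0.42 to 0.040. TRIM62 and TRIM61 were higher with IFNγ only by their own test, TRIM62 by 1.02 (SE 0.20, adjusted p = 0.00293). TRIM61 had 0 counts in the treated HT1376 CT libraries and 7, 5 and 5 in the treated HT1376 FOXP3 KO libraries, which is at least 3.36-fold higher against a floor of 3 counts over the group. Of its 30 counts, 12 and 17 were in untreated and treated HT1376 FOXP3 KO, so it reached the minimum of 10 counts through that line.

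Genes that carry the TRIM fold under other symbols, and lists of related genes, are described beside the members. Over all genes tested, 3.53% rose and 1.82% fell with IFNγ in HT1376 CT. In HT1376 FOXP3 KO 0.978% rose and 0.00414% fell. Of 8 such genes 7 were tested in HT1376 CT, where PML, the scaffold of nuclear bodies also known as TRIM19, rose by 2.66 on the log2 scale (adjusted p = 3.51e-06) and MID1, a microtubule-binding ligase, fell by 0.40 (adjusted p = 0.0386). In HT1376 FOXP3 KO all 8 were tested and PML alone passed, at 1.33 (adjusted p = 0.00284). Of 17 genes of IFNγ signalling, 13 rose in HT1376 CT and 9 in HT1376 FOXP3 KO and none fell, with IRF1 at 3.83 and 2.91 on the log2 scale. Of 20 genes of RIG-I and other innate sensing, the pathway in which TRIM25, TRIM14 and TRIM4 act, 9 rose in HT1376 CT and 5 in HT1376 FOXP3 KO. DDX58, which encodes RIG-I, was among them in both lines, at 2.69 and 1.55. Of 20 enzymes of ubiquitin and ISG15, 7 rose in HT1376 CT and 4 in HT1376 FOXP3 KO. UBE2L6 and UBA7, the conjugating and activating enzymes for ISG15, rose by 2.88 and 3.20 in HT1376 CT and by 2.52 and 1.88 in HT1376 FOXP3 KO. All of these lists were chosen with earlier results of the data known.

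Members lie in clusters on the genome, here called so where neighbours are at most 1000000 bases apart. On chromosome 11 (chr11:4384897-6474459) TRIM21, TRIM68, TRIM6, TRIM34, TRIM5, TRIM22 and TRIM3 lie together, of which 3 rose with IFNγ in HT1376 CT. TRIM5 and TRIM22 lie on opposite strands with overlapping annotated spans, and their neighbours TRIM34 and TRIM6 stayed at or under 5.42 CPM in every library with no call for IFNγ. On chromosome 6 (chr6:30102897-30343729), within the major histocompatibility complex, are TRIM31, TRIM40, TRIM10, TRIM15, TRIM26 and TRIM39, of which 2 rose in HT1376 CT and 2 in HT1376 FOXP3 KO, TRIM26 in both. TRIM11 and TRIM17 on chromosome 1 had 1 that rose in HT1376 CT. None rose in the clusters on chromosome 5 (TRIM7, TRIM41 and TRIM52) and chromosome 17 (TRIM47 and TRIM65). Among all members tested, 11 of 51 rose in HT1376 CT and 9 of 49 in HT1376 FOXP3 KO, against 3.53% and 0.978% of all genes. Whether position goes with the response was not tested. TRIM6, TRIM34 and TRIM39 share exons with read-through genes, and TRIM59 shares 1553 exon bases with SMC4 on the other strand, which had 109137 counts over the libraries against 3021 for TRIM59. In all, 25 members share exon bases with another annotated gene, and for TRIM13, TRIM14, TRIM17, TRIM39, TRIM59 and TRIM73 that gene had at least as many counts. Their values, and those of the close copies TRIM73 and TRIM74, are uncertain, since the strand setting and the handling of shared reads are not given in the sources used here. The 12 genes of the family under 10 counts were TRIM42, TRIM43, TRIM48, TRIM49, TRIM50, TRIM51, TRIM54, TRIM60, TRIM63, TRIM64, TRIM71 and TRIM77, none above 3 counts in a library.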

How the data were processed

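RNA-seq of 12 HT1376 libraries was used. The authors aligned reads with STAR (2.7.11a in the submitters' processing notes) to GRCh38 (hg38) with the Ensembl annotation, removed Mycoplasma reads with Kraken, and deposited raw htseq-count counts per gene. Strand and multi-mapping settings are not given in the sources used here.

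All 12 columns were used, grouped by label. Counts were tested with edgeR 4.0.16 (glmQLFit, glmQLFTest) under R 4.3.3 with TMM factors, on genes whose counts summed to 10 or more over the fitted libraries, and p-values were adjusted by Benjamini-Hochberg over all genes tested. Calls are adjusted p under 0.05. Comparisons of 2 groups used their 6 libraries, and the difference in IFNγ effect was an interaction over 12. CPM were scaled by TMM factors over 12 libraries, and exon lengths and positions are from GENCODE 44. Fits were also run on simulated counts that held no replicate effect. That run cannot check the block where same-numbered libraries deviate together. Within a line, residuals about the group means correlated across genes between same-numbered libraries (r 0.139 to 0.267). For different numbers r was -0.19 to -0.0033, so the block was read as pairing for the IFNγ effect in each line. In the test of the difference in effects the block was shared by both lines. Between the lines r was 0.0407 to 0.136 for same numbers and -0.114 to 0.0706 for different numbers, and these ranges overlapped. Alternatives were RLE factors, other filters, DESeq2 1.42.0, the block, all 12 libraries in 1 fit, the bias-adjusted deviance and leaving out 1 library.

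The members and lists were chosen with earlier results of these data known. Named genes were TRIM22, TRIM21, members past an IFNγ test or the test of the difference with or without the block, the 5 largest differences each way between untreated lines, and the 5 members of highest mean CPM past no IFNγ test. Members outside that rule are named where counts of calls are listed, after their values were seen. Libraries within a group differed by more than sampling noise.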

Additional observations from a re-analysis of the deposited data

Results flagged for a closer look

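TRIM22 drew attention because its IFNγ effect differed between the lines by the interaction test itself. The difference was -3.73 on the log2 scale (SE 0.55, adjusted p = 0.0114 by edgeR's quasi-likelihood test), and in both lines all 3 treated libraries lay above all 3 untreated ones. No cause was tested.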

How the results depend on the processing

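No named value changed direction with a call under any alternative run. The number of members that fell with IFNγ in HT1376 CT was 3 in the reported fit, 5 with no filter on low counts, 7 with the replicate block, 6 with the replicate block and bias-adjusted deviance (added after seeing the data), and 1 to 3 with 1 library left out. Members that rose in HT1376 FOXP3 KO numbered 4 to 8 with 1 library left out, against 9. Members lower in untreated HT1376 FOXP3 KO numbered 7 to 10 with 1 library left out, against 11. For the difference in IFNγ effect, 0 members were past the test upwards in the reported fit by edgeR (5 at an unadjusted p under 0.05) and 0 by DESeq2, 3 with no filter, 2 with the replicate block and 2 with the block and bias-adjusted deviance. Downwards there was 1, with 2 under DESeq2, 3 with the replicate block, 3 with the block and bias-adjusted deviance, and 0 to 1 with 1 library left out. The causes of these shifts were not tested. The block changed the other calls only as given in the report, apart from those between the treated lines: with it TRIM14 and TRIM27 became lower in HT1376 FOXP3 KO (adjusted p of 0.0275 and 0.0319), TRIM13 and TRIM34 became higher (0.0494 and 0.0259), and TRIM61 was no longer past the threshold (0.0883). Depth limits the members near 0 counts: in the shallowest library 3 counts are 0.692 CPM.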
